A study of Mus musculus with 18 samples.

Results

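The genes described here are 8 mouse genes of sterol metabolism: Hmgcs1, Idi1, Fdft1, Sqle and Cyp51, which encode enzymes of cholesterol synthesis, Insig1, which holds that synthesis in check, Abca1, which exports cholesterol, and Ch25h, which turns cholesterol into an oxysterol. Members were the probe sets that the platform annotates to these symbols. The rule found 18 probe sets for 7 of the 8 genes, out of 12393 genes named on the arrays, and Insig1 was not analysed here. Fluid, 1 uL, was injected under the retina of Balb/cJ mice to detach it, and every retina analysed here had been injected. This gave 6 groups of 3 arrays: saline with 10 uM INS37217 at 2 h, saline alone at 2 h, and the same pair at 24 h and at 7 d, 18 arrays in all, each hybridised with a pool of more than 5 retinas. INS37217 (denufosol) activates P2Y2, a receptor for extracellular nucleotides whose stimulation drives fluid out of the subretinal space. The retina was reattached but folded at 24 h, and smooth but short of normal function at 7 d. An uninjected retina was not analysed here, so no value is relative to normal retina, and an injection of fluid as a model of detachment also wounds the eye.

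Cells make cholesterol through the mevalonate pathway. When membrane sterol runs low, SCAP carries the transcription factor SREBP2 to the Golgi, where it is cut and freed to switch on nearly every enzyme of the pathway; INSIG proteins and oxysterols hold it back. When sterol is plentiful, oxysterols activate the LXR receptors, which switch on exporters such as ABCA1. 25-hydroxycholesterol, the product of CH25H, acts on both arms, and Ch25h is known as a gene that macrophages induce on inflammatory and interferon signals. Photoreceptors renew their membrane discs every day, and retinal cholesterol comes both from local synthesis and from lipoproteins taken up through the pigment epithelium.

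The sequence just before the start site is shown for 3 members that carry the patterns described below: synthesis (Hmgcs1 and Idi1) and oxysterol production (Ch25h). Each is the 250 bases before the RefSeq start site, in GRCm38.p6, on the strand of the gene. Capitals mark matches to a sterol regulatory element (CACNCCAC), an NF-Y box (CCAAT), an LXR element (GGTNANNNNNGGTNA), an interferon-stimulated element (GAAANNGAAA) or a cAMP response element (TGACGTCA), searched on both strands. No match overlapped another. The letters of the LXR element and the choice of the cAMP response element were made after the sequences had been seen.
Hmgcs1, chr13:119690101-119690350, plus strand: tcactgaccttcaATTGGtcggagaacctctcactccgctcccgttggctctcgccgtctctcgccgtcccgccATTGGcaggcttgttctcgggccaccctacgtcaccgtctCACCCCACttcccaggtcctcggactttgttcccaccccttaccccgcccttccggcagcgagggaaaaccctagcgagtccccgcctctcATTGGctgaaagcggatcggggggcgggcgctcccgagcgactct
Idi1, chr13:8885356-8885605, plus strand: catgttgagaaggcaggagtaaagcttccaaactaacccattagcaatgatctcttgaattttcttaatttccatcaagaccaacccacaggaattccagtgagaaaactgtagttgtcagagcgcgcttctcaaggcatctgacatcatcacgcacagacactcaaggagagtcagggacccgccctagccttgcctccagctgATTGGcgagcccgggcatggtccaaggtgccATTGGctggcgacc
Ch25h, chr19:34475149-34475398, minus strand: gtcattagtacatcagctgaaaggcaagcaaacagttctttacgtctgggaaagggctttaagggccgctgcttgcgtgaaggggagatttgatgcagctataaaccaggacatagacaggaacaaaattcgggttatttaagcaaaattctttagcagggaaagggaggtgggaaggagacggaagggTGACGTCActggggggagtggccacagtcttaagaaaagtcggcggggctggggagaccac
Hmgcs1 held 1 sterol regulatory element, which began 136 bases before the start, and 3 NF-Y boxes, and Idi1 held 2 NF-Y boxes. Among 32851 RefSeq windows of the same length, 5.29% held that sterol element and 33.8% an NF-Y box. The Abca1 window held 1 LXR element, which began 67 bases before the RefSeq start used for it (0.621% of windows). The last 93 bases of that window, the match among them, lie within the gene as annotated from a start further upstream, and its sequence is not printed. The Ch25h window held 1 cAMP response element at 61 bases (1.55% of windows) and no interferon-stimulated element (2.98% of windows). Cyp51 and Insig1 also had a window, and Fdft1 and Sqle are named only. A match is a stretch of letters in the reference and not evidence of binding.

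All values below are the deposited log2 RMA values, and a change is a difference between means of n = 3 arrays with its standard error (SE). The p-values come from limma and were adjusted over all 22626 probe sets, with an adjusted p under 0.05 as the threshold. Levels of different probe sets cannot be compared on this scale. On some member probe sets, such as Idi1 1451122_at and Cyp51 1450646_at, replicate 1 was lowest in every group, but not on Hmgcs1 1433443_a_at. Over all probe sets, arrays with the same number deviated together. The main results are therefore given without and, where a call differs, with replicate number as a block. For 8 of the 9 INS37217 arrays another label speaks of saline only, and 1 saline array at 7 d (replicate 2) is elsewhere labelled 2 h, so groups follow the sample titles. In such bulk samples, fewer cells of a type and less RNA per cell cannot be told apart.

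At 7 d against 2 h, Hmgcs1, Idi1 and Ch25h fell and Abca1 rose in both treatments. For Idi1 the call came from probe set 1423804_a_at, and the probe set of highest mean, 1451122_at, passed with the block only. The means of 1423804_a_at and of Abca1 1450392_at, also called, were low, above those of 31.1% and 20.2% of probe sets. The other synthesis genes passed as lower with the replicate block only, Cyp51 in both treatments and Fdft1 and Sqle on INS37217 arrays. Between 7 d and 2 h, 6 of the 18 member probe sets passed on INS37217 arrays, 3 lower (Hmgcs1, Idi1, Ch25h) and 3 higher (all of Abca1), against a background of 4.91% of all probe sets. On saline arrays the same count was 6 of 18, again 3 lower and 3 higher, against 5.44%. With the block 16 of 18 passed on INS37217 arrays, 13 lower and 3 higher, covering all 7 genes (background 17.9%), and 11 of 18 on saline arrays, 8 lower and 3 higher, covering 5 genes (background 21.9%). Among the 14 probe sets of the 5 synthesis enzymes the median change was -0.63 on INS37217 arrays, with 13 below 0, and -0.38 on saline arrays, with 11 below 0. The medians over all probe sets were -0.04 and -0.01. Probe sets of the same gene are not independent, and the members were chosen with earlier results of these data known.

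**Figure D1:**
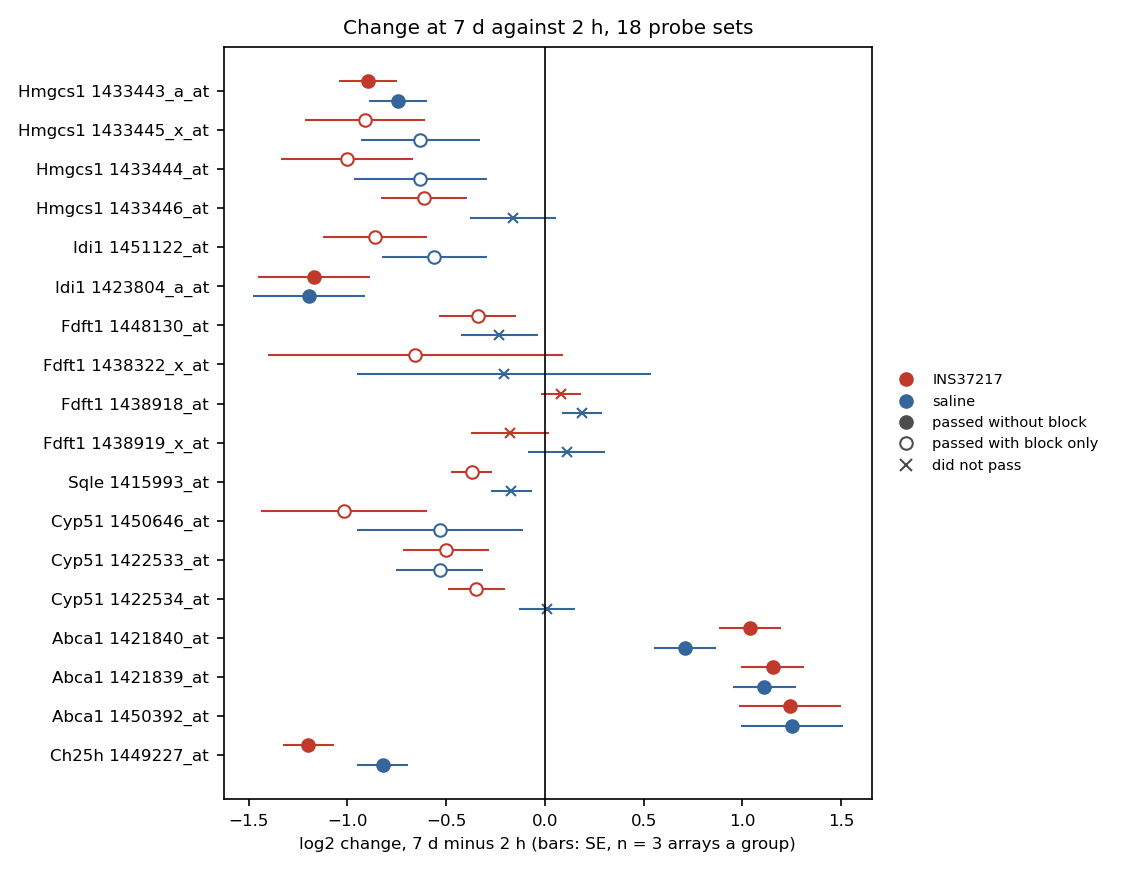
Change in log2 RMA value at 7 d minus 2 h for the 18 member probe sets, with bars for the SE (n = 3 arrays a group), INS37217 in red above saline in blue. Filled circles passed without the block, open circles with it only, and crosses with neither; the 3 Abca1 probe sets lie right of 0 in both treatments, and Ch25h and most synthesis probe sets lie left of it.

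Hmgcs1 encodes cytosolic HMG-CoA synthase, which makes the substrate of the rate-limiting HMG-CoA reductase. Its probe set of highest mean, 1433443_a_at, read 10.45, 10.49 and 10.54 on the INS37217 arrays at 2 h, 10.10, 10.15 and 10.21 at 24 h, and 9.27, 9.83 and 9.69 at 7 d. The saline arrays read 10.49, 10.40 and 10.64 at 2 h, 10.28, 9.89 and 10.07 at 24 h, and 9.53, 9.83 and 9.94 at 7 d. In both treatments every array at 7 d lay below every array at 2 h, and so did every array at 24 h. Hmgcs1 at 7 d against 2 h fell by 0.90 (SE 0.15) on INS37217 arrays, adjusted p = 0.0013, which is 1.86-fold. With saline alone it fell by 0.74 (SE 0.15), adjusted p = 0.0063, and both calls held whichever single array was left out. The step from 2 h to 24 h was -0.34 on INS37217 arrays (adjusted p = 0.25, 0.058 with the block) and -0.43 on saline arrays (0.096, and 0.014 with the block). The other 3 Hmgcs1 probe sets changed by -0.91, -1 and -0.61 on INS37217 arrays at 7 d against 2 h and passed with the block only. On saline arrays 2 of those 3 passed with the block, both at -0.63. The groups ran, from high to low, saline 2 h (10.51 ± 0.12), INS37217 2 h (10.49 ± 0.05), INS37217 24 h (10.15 ± 0.06), saline 24 h (10.08 ± 0.20), saline 7 d (9.77 ± 0.21) and INS37217 7 d (9.60 ± 0.29), and neighbours differed by more than their SDs only where the time changed.

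Idi1 encodes isopentenyl diphosphate isomerase, which makes the activated isoprene unit from which sterols are built. Probe set 1451122_at read 8.24, 9.01 and 8.86 at 2 h, 7.86, 8.62 and 8.51 at 24 h, and 7.37, 8.14 and 8.02 at 7 d on INS37217 arrays. With saline alone it read 8.25, 8.75 and 8.94 at 2 h, 7.90, 8.27 and 8.34 at 24 h, and 7.86, 8.34 and 8.06 at 7 d. Replicate 1 was lowest in each group, and within each replicate number the value at 7 d was below that at 2 h. The change at 7 d against 2 h was -0.86 on INS37217 arrays (SE 0.27, adjusted p = 0.086) and -0.56 on saline arrays (adjusted p = 0.31), and with the block both passed, at 5.3e-06 and 0.00061. The other probe set, 1423804_a_at, read 4.77, 5.15 and 5.20 at 7 d, against 6.09, 6.65 and 5.89 at 2 h, on INS37217 arrays. It read 4.91, 5.60 and 5.00 at 7 d, against 5.84, 6.78 and 6.47 at 2 h, on saline arrays. The 2 times did not overlap in either treatment. It fell by 1.17 (SE 0.28, adjusted p = 0.023) on INS37217 arrays and by 1.19 (SE 0.28, adjusted p = 0.020) on saline arrays. Those 2 calls were lost on leaving out any INS37217 array of the 2 times but replicate 3 at 2 h (adjusted p up to 0.12), or any of saline 2 h replicates 2 and 3 and saline 7 d replicates 1 and 3 (up to 0.12). With the block they passed at 1.4e-05 and 1.0e-05.

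Fdft1 encodes squalene synthase, the first step that commits isoprenoids to sterols. Its probe set 1448130_at read 8.89, 9.24 and 9.24 at 2 h, 8.78, 9.13 and 9.13 at 24 h, and 8.51, 8.93 and 8.91 at 7 d on INS37217 arrays. Saline arrays gave 8.73, 9.20 and 9.27 at 2 h, 8.88, 9.10 and 9.11 at 24 h, and 8.44, 9.15 and 8.92 at 7 d, and the times overlapped in both treatments. The changes of -0.34 and -0.23 (SE 0.19 each) did not pass, and with the block only the one on INS37217 arrays did (adjusted p = 0.015, against 0.092 on saline arrays). The 4 probe sets of Fdft1 disagree. On 1438322_x_at replicate 1 lay far below the others, at 6.92 against 9.24 and 9.19 on the INS37217 arrays at 7 d, and its change of -0.66 passed with the block only (adjusted p = 0.0049). Without that array the change, fitted with no block, was 0.11. The remaining 2, 1438918_at and 1438919_x_at, passed in no contrast with or without the block, and once replicate means were removed they correlated with 1448130_at at -0.61 and -0.14 over the 18 arrays.

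Sqle encodes squalene epoxidase, a rate-limiting enzyme of the sterol branch, and had 1 probe set. It read 8.48, 8.54 and 8.62 at 2 h, 8.48, 8.52 and 8.50 at 24 h, and 8.08, 8.26 and 8.19 at 7 d on INS37217 arrays. Under saline alone the values were 8.34, 8.52 and 8.49 at 2 h, 8.68, 8.57 and 8.58 at 24 h, and 8.09, 8.48 and 8.27 at 7 d. Every array at 7 d lay below every array at 24 h in both treatments, while the 2 h and 7 d arrays overlapped on saline only. The change at 7 d against 24 h was -0.32 on INS37217 arrays (SE 0.10, adjusted p = 0.18) and -0.33 on saline arrays (SE 0.10, adjusted p = 0.21), and with the block these passed at 0.038 and 0.036. Against 2 h it was -0.37 on INS37217 arrays (adjusted p = 0.055, 0.0085 with the block) and -0.17 on saline arrays (0.49, and 0.23 with the block).

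Cyp51 encodes lanosterol 14-alpha-demethylase, the cytochrome P450 that starts the trimming of lanosterol towards cholesterol. Probe set 1450646_at read 6.96, 7.79 and 7.80 at 2 h, 6.73, 7.37 and 7.54 at 24 h, and 5.68, 6.98 and 6.84 at 7 d on INS37217 arrays. It read 6.44, 7.52 and 7.71 at 2 h, 6.60, 7.31 and 7.36 at 24 h, and 6.06, 7.30 and 6.72 at 7 d on saline arrays. Replicate 1 was lowest in each of these groups, and the 2 h and 7 d arrays overlapped in both treatments, but within each number the 7 d array was the lower. The change was -1.02 on INS37217 arrays (SE 0.42, adjusted p = 0.25) and -0.53 on saline arrays (adjusted p = 0.66), and both passed with the block, at 1.1e-05 and 0.0065. Of the other 2 probe sets, 1422533_at changed by -0.50 on INS37217 arrays and -0.53 on saline arrays, both passing with the block only. The third, 1422534_at, changed by -0.35 on INS37217 arrays, passing with the block only (adjusted p = 0.040), and stood at 0.01 on saline arrays. The 3 correlated with each other at only 0.34 to 0.55 once replicate means were removed.

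**Figure D2:**
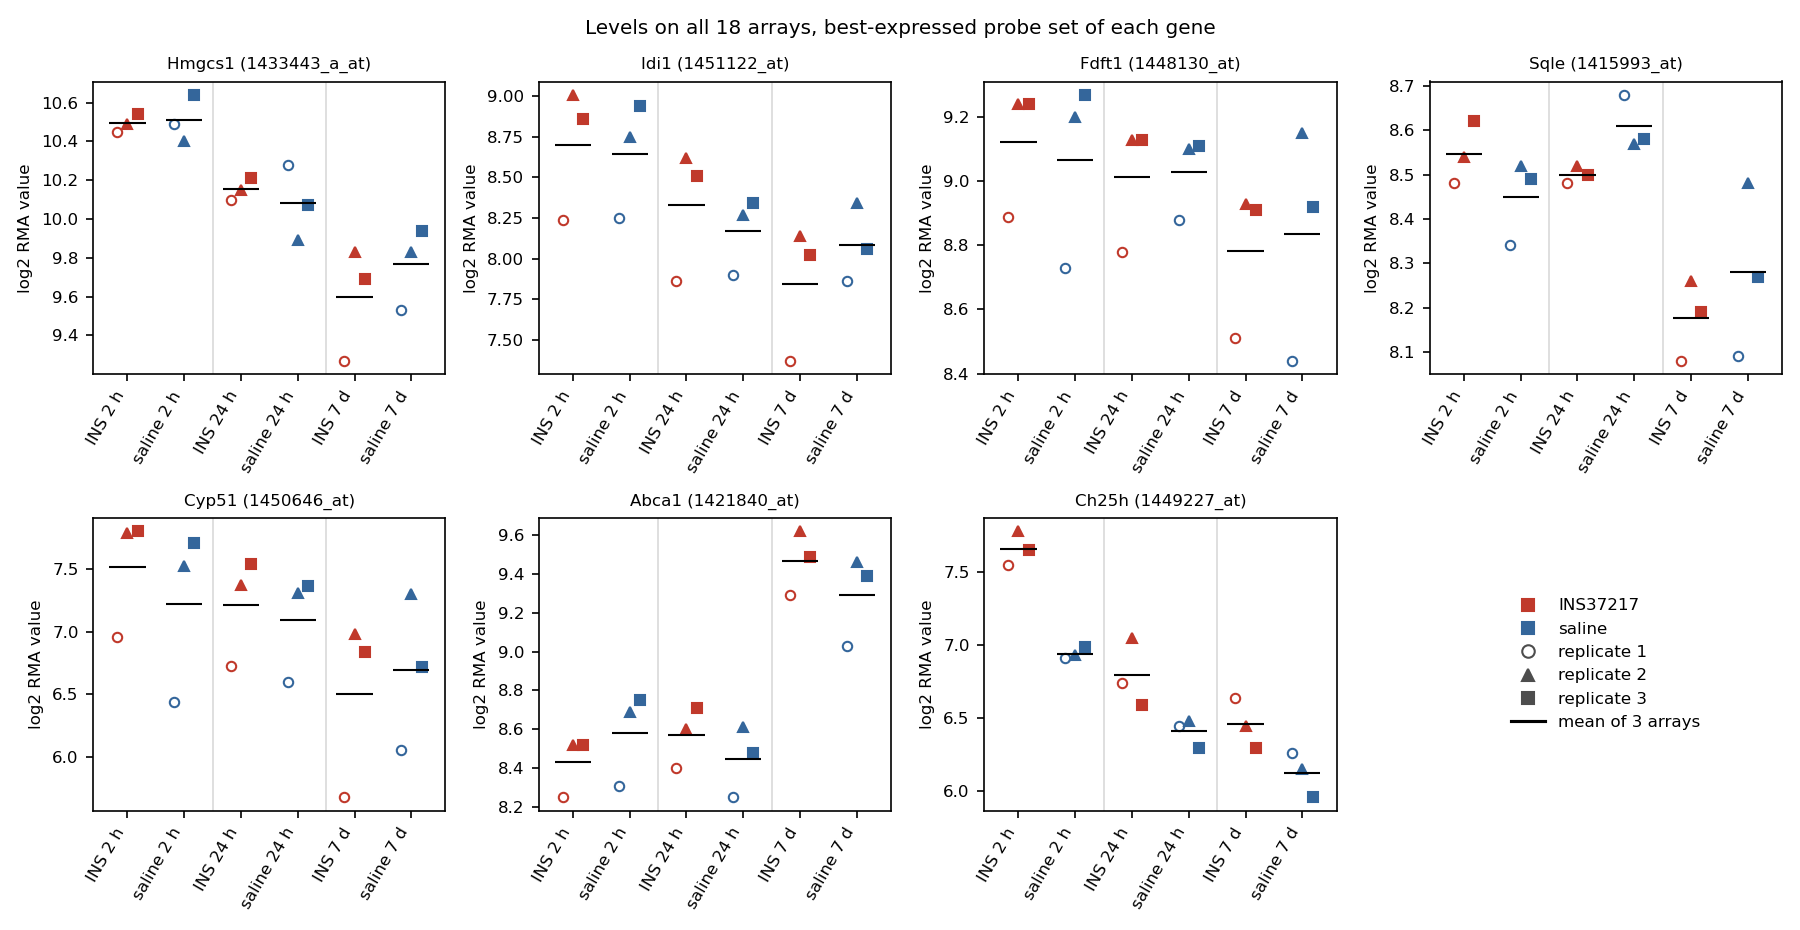
Log2 RMA value on all 18 arrays for the probe set of highest mean of each of the 7 measured genes, with INS37217 left of saline at each time, symbols for the replicate number and a line for the group mean. The 5 synthesis genes lie lowest at 7 d with replicate 1 often below the others, Abca1 lies highest at 7 d, and Ch25h lies highest at 2 h on INS37217 arrays.

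Averaged over the 5 synthesis genes, the level was 8.88 ± 0.24 at 2 h, 8.64 ± 0.22 at 24 h and 8.18 ± 0.35 at 7 d on INS37217 arrays (SD, n = 3). On saline arrays it was 8.78 ± 0.29, 8.60 ± 0.12 and 8.33 ± 0.31 at the same times. From high to low the groups ran INS37217 2 h, saline 2 h, INS37217 24 h, saline 24 h, saline 7 d and INS37217 7 d, and no 2 neighbours in that order differed by more than the larger of their SDs. Taken singly by the probe set of highest mean, Idi1, Fdft1 and Cyp51 were also highest in INS37217 2 h, followed by saline 2 h, and lowest in INS37217 7 d. Sqle ran saline 24 h (8.61 ± 0.06), INS37217 2 h (8.55 ± 0.07), INS37217 24 h (8.50 ± 0.02), saline 2 h (8.45 ± 0.10), saline 7 d (8.28 ± 0.20) and INS37217 7 d (8.18 ± 0.09). For none of these 4 genes did neighbours in the order differ by more than the larger SD. By a rule for likeness (Pearson r over 18 arrays, replicate means removed, among 2783 genes whose group means span at least 0.5), the genes most like this average were Hk2 (r = 0.960), Gadd45g, Txnrd1, Esrrb and Erdr1 (r = 0.936). Hk2, a hexokinase, averaged 9.83 at 7 d against 10.59 at 2 h on INS37217 arrays, and 9.95 against 10.51 on saline arrays.

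The rest of the pathway was read from a list of 21 enzymes, 18 of them measured, each by its probe set of highest mean. On INS37217 arrays 1 of 18 enzymes passed at 7 d against 2 h (Hmgcs1), against 5.65% of all genes. With the block 10 were lower (Hmgcs1, Mvd, Idi1, Fdft1, Sqle, Lss, Cyp51, Msmo1, Sc5d and Dhcr7) and 1 was higher (Ggps1, which leads to protein prenylation and not to sterols), against 18.6% of all genes. On saline arrays 1 of 18 passed (Hmgcs1, background 5.13%), and with the block 4 were lower (Hmgcs1, Idi1, Cyp51 and Hsd17b7) and Ebp was higher (background 21.0%). The list's median change was -0.31 on INS37217 arrays and -0.17 on saline arrays, beside -0.05 and -0.02 over all genes. Msmo1, a C-4 sterol methyl oxidase, changed by -0.81 on INS37217 arrays (adjusted p = 0.14, 0.00014 with the block) and stood at -0.30 on saline arrays (0.75, and 0.11 with the block).

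**Figure D3:**
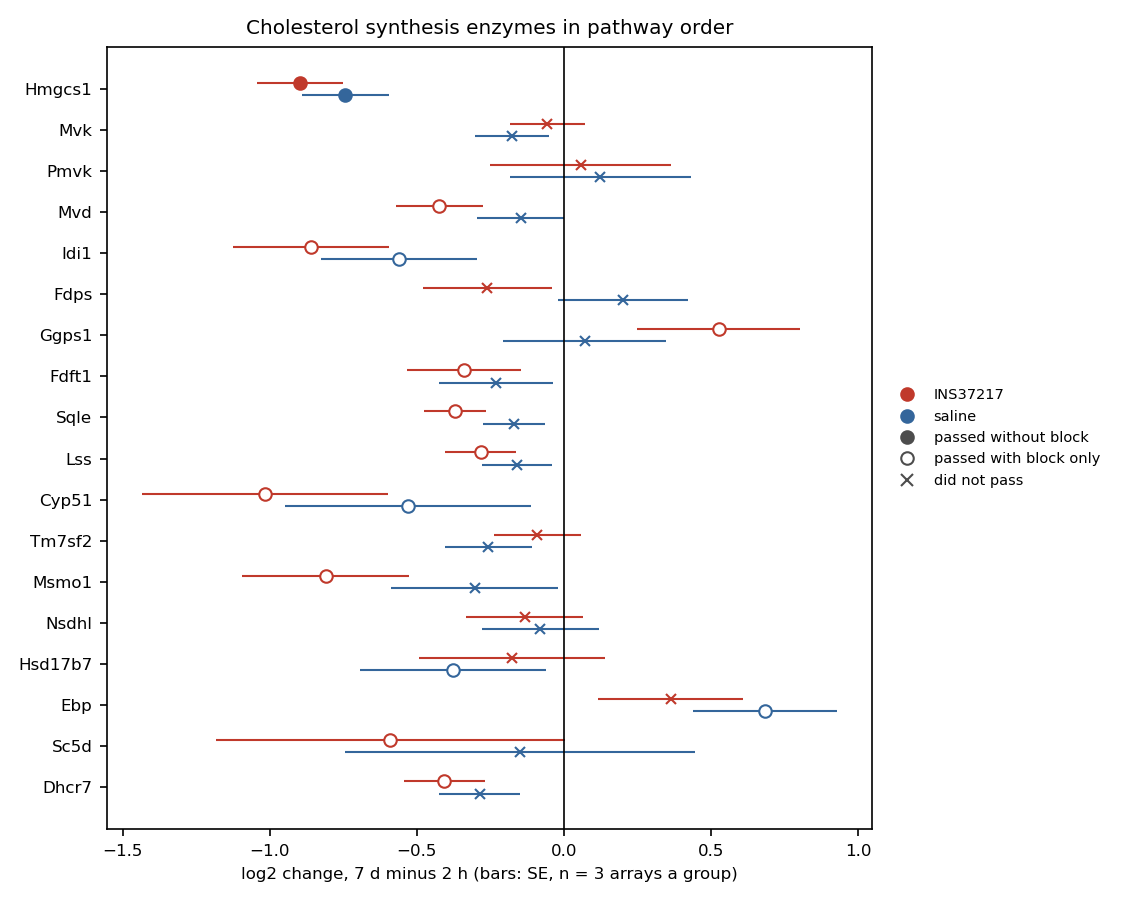
Change at 7 d minus 2 h for 18 enzymes of cholesterol synthesis in pathway order, from Hmgcs1 at the top to Dhcr7 at the bottom, with bars for the SE (n = 3 arrays a group), INS37217 in red above saline in blue. Most points lie left of 0, while Ebp, Ggps1 and Pmvk lie right of it in both treatments; filled circles passed without the block and open circles with it only.

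At 24 h against 2 h, 13 of the 18 enzymes lay below 0 on INS37217 arrays (median -0.11) and 9 on saline arrays (-0.015). The medians over all genes were -0.06 and -0.05. Of the 14 synthesis member probe sets, all 14 lay below 0 on INS37217 arrays (median -0.28) and 11 on saline arrays (-0.135). The median over all probe sets was -0.04 in both treatments. Of the 18 enzymes only Ebp passed at 24 h against 2 h, in both treatments (backgrounds 7.51% of genes on INS37217 and 7.21% on saline arrays). Ebp, the sterol isomerase known as emopamil-binding protein, read 8.56, 9.24 and 9.26 at 24 h, against 7.89, 7.83 and 7.68 at 2 h, on INS37217 arrays. The saline arrays read 8.53, 8.98 and 9.03 at 24 h, against 7.37, 7.57 and 7.66 at 2 h. The groups did not overlap, and Ebp rose by 1.22 (SE 0.25, adjusted p = 0.0055) on INS37217 arrays and by 1.31 (adjusted p = 0.0032) on saline arrays. With the block 3 enzymes were higher and 2 lower on INS37217 arrays (Pmvk, Ggps1 and Ebp; Idi1 and Dhcr7; background 22.9%). On saline arrays 3 were higher and 4 lower (Pmvk, Fdps and Ebp; Hmgcs1, Idi1, Hsd17b7 and Dhcr7; background 28.2%).

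Among 5 measured genes of sterol sensing (of 7 listed), none passed at 7 d against 2 h in either treatment without the block. With it Srebf2, which encodes SREBP2 itself, was lower in both, at -0.48 on INS37217 arrays and -0.42 on saline arrays. This count of 1 of 5 in each treatment lay near the 18.6% and 21.0% of all genes that passed. At 24 h with the block Srebf1, Srebf2 and Scap were lower on INS37217 arrays (3 of 5, background 22.9%) and Srebf1 on saline arrays (1 of 5, background 28.2%).

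Abca1, the ATP-binding transporter that loads cholesterol onto apolipoproteins, was the member that rose. Its probe set 1421840_at read 8.25, 8.52 and 8.52 at 2 h, 8.40, 8.60 and 8.71 at 24 h, and 9.29, 9.62 and 9.49 at 7 d on INS37217 arrays. With saline alone it read 8.31, 8.69 and 8.75 at 2 h, 8.25, 8.61 and 8.48 at 24 h, and 9.03, 9.46 and 9.39 at 7 d. All 6 arrays at 7 d lay above all 12 earlier arrays. Against 2 h it rose at 7 d by 1.04 (SE 0.16, adjusted p = 0.00058), 2.05-fold, on INS37217 arrays, and this call held whichever array was left out. With saline alone it rose by 0.71 (SE 0.16, adjusted p = 0.013). That call was lost without saline 2 h replicate 1 (adjusted p = 0.060), without saline 7 d replicate 3 (0.069) or without saline 7 d replicate 2 (0.069), the array with conflicting labels, where the change was 0.63. Against 24 h the same probe set rose at 7 d by 0.90 (adjusted p = 0.0038) on INS37217 arrays and by 0.85 (adjusted p = 0.0097) on saline arrays, the saline call being lost without saline 24 h replicate 1 or saline 7 d replicate 2 or 3 (adjusted p 0.055 to 0.060).

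Of the other 2 Abca1 probe sets, 1421839_at passed without the block at 24 h on saline arrays. At 24 h against 2 h 1450392_at stood at 0.36 on INS37217 arrays (adjusted p = 0.59, 0.19 with the block) and at 0.66 on saline arrays (0.15, and 0.013 with the block). The difference between the treatments in this step did not pass for either. Probe set 1421839_at read 6.40, 6.16 and 6.50 at 2 h, 6.49, 6.80 and 6.77 at 24 h, and 7.29, 7.62 and 7.61 at 7 d on INS37217 arrays. Saline arrays gave 6.28, 5.94 and 6.23 at 2 h, 6.66, 6.81 and 6.98 at 24 h, and 7.02, 7.20 and 7.56 at 7 d. Each saline group was thus clear of the one before it. At 24 h against 2 h it rose by 0.67 on saline arrays (SE 0.16, adjusted p = 0.017), a call lost without saline 2 h replicate 2 or saline 24 h replicate 2 or 3 (adjusted p 0.057 to 0.092), and stood at 0.33 on INS37217 arrays (adjusted p = 0.31, 0.052 with the block). Over the whole interval to 7 d it rose by 1.15 on INS37217 arrays (adjusted p = 0.00025) and by 1.11 on saline arrays (adjusted p = 0.00047), in each case whichever array was left out. The third, 1450392_at, read 5.40, 5.85 and 5.76 at 7 d, against 4.45, 4.48 and 4.36 at 2 h, on INS37217 arrays. It read 4.93, 6.21 and 5.83 at 7 d, against 4.60, 4.23 and 4.39 at 2 h, on saline arrays, again with no overlap. It rose by 1.24 on INS37217 arrays (SE 0.26, adjusted p = 0.0083) and by 1.25 on saline arrays (adjusted p = 0.0084, and 0.050 without saline 7 d replicate 3). With replicate means removed, the 3 probe sets correlated with each other at 0.80 to 0.93. By 1421840_at the groups ran, from high to low, INS37217 7 d (9.47 ± 0.17), saline 7 d (9.29 ± 0.23), saline 2 h (8.58 ± 0.24), INS37217 24 h (8.57 ± 0.16), saline 24 h (8.45 ± 0.18) and INS37217 2 h (8.43 ± 0.16), and only saline 7 d and saline 2 h, as neighbours, differed by more than their SDs.

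The LXR and efflux list had 7 of 8 genes measured. Abca1 and Apoe passed at 7 d against 2 h in both treatments and no other gene did (2 of 7, against 5.65% of all genes on INS37217 and 5.13% on saline arrays). With the block (18.6% and 21.0% of all genes) Abcg4 was lower in both, and Mylip was higher and Abcg1 lower on saline arrays. Apoe encodes an apolipoprotein of the particles that carry cholesterol between retinal cells. It read 11.06, 11.00 and 11.25 at 2 h, 10.04, 10.28 and 10.45 at 24 h, and 12.07, 12.22 and 12.34 at 7 d on INS37217 arrays. Under saline alone the values were 10.96, 11.04 and 11.19 at 2 h, 10.42, 10.78 and 10.79 at 24 h, and 11.75, 12.11 and 12.17 at 7 d. In both treatments the 24 h arrays were all below and the 7 d arrays all above those at 2 h. Apoe rose by 1.11 (SE 0.15, adjusted p = 0.00017) on INS37217 arrays and by 0.95 (adjusted p = 0.00096) on saline arrays at 7 d against 2 h. At 24 h against 2 h it fell by 0.85 on INS37217 arrays (adjusted p = 0.0016) and stood at -0.40 on saline arrays (adjusted p = 0.12, 0.0027 with the block). At 24 h Apoe averaged 10.26 with INS37217 and 10.66 with saline, a difference that passed with the block only (background 0.888% of all probe sets). Abcg1, a second cholesterol exporter, fell at 24 h against 2 h by 0.50 on INS37217 arrays (adjusted p = 0.0068) and by 0.65 on saline arrays (adjusted p = 0.0010).

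Of the uptake and transport list, 8 of 10 genes were measured. On INS37217 arrays at 7 d against 2 h, 2 were higher and 2 lower, and on saline arrays none passed (5.65% and 5.13% of all genes passed). At 24 h against 2 h Lipa was already higher on INS37217 arrays, by 0.71 (adjusted p = 0.00015), and on saline arrays with the block only. Lipa, the lysosomal acid lipase that frees cholesterol from esters, read 8.52, 8.74 and 8.45 at 7 d, against 7.70, 7.74 and 7.68 at 2 h, on INS37217 arrays. It read 8.23, 8.17 and 8.24 at 7 d, against 7.95, 7.82 and 7.86 at 2 h, on saline arrays. Lipa rose by 0.86 (SE 0.09, adjusted p = 2.7e-05) on INS37217 arrays and stood at 0.34 on saline arrays (adjusted p = 0.052, 0.013 with the block). Npc2, which hands cholesterol out of lysosomes, rose by 0.76 on INS37217 arrays (adjusted p = 0.016), a call lost without INS37217 2 h replicate 3 or 7 d replicate 2 or 3 (adjusted p 0.080 to 0.10). Stard4, a cytosolic sterol carrier, fell by 0.57 (adjusted p = 0.010), and how far that call rests on single arrays was not examined. Scarb1, the receptor for high-density lipoprotein, fell by 0.67 (adjusted p = 0.048). Its call was lost without INS37217 2 h replicate 1 (-0.43, adjusted p = 0.19), 2 h replicate 3 or 7 d replicate 2 or 3. Scarb1 was also lower at 24 h against 2 h in both treatments without the block (7.51% of all genes passed on INS37217 and 7.21% on saline arrays). With 1 array left out, that call held in 3 of 6 fits on INS37217 arrays and in 1 of 6 on saline arrays. At 7 d against 2 h on saline arrays with the block Lipa and Npc2 were higher and Vldlr, Scarb1 and Stard4 lower, 5 of 8 against 21.0% of all genes.

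**Figure D4:**
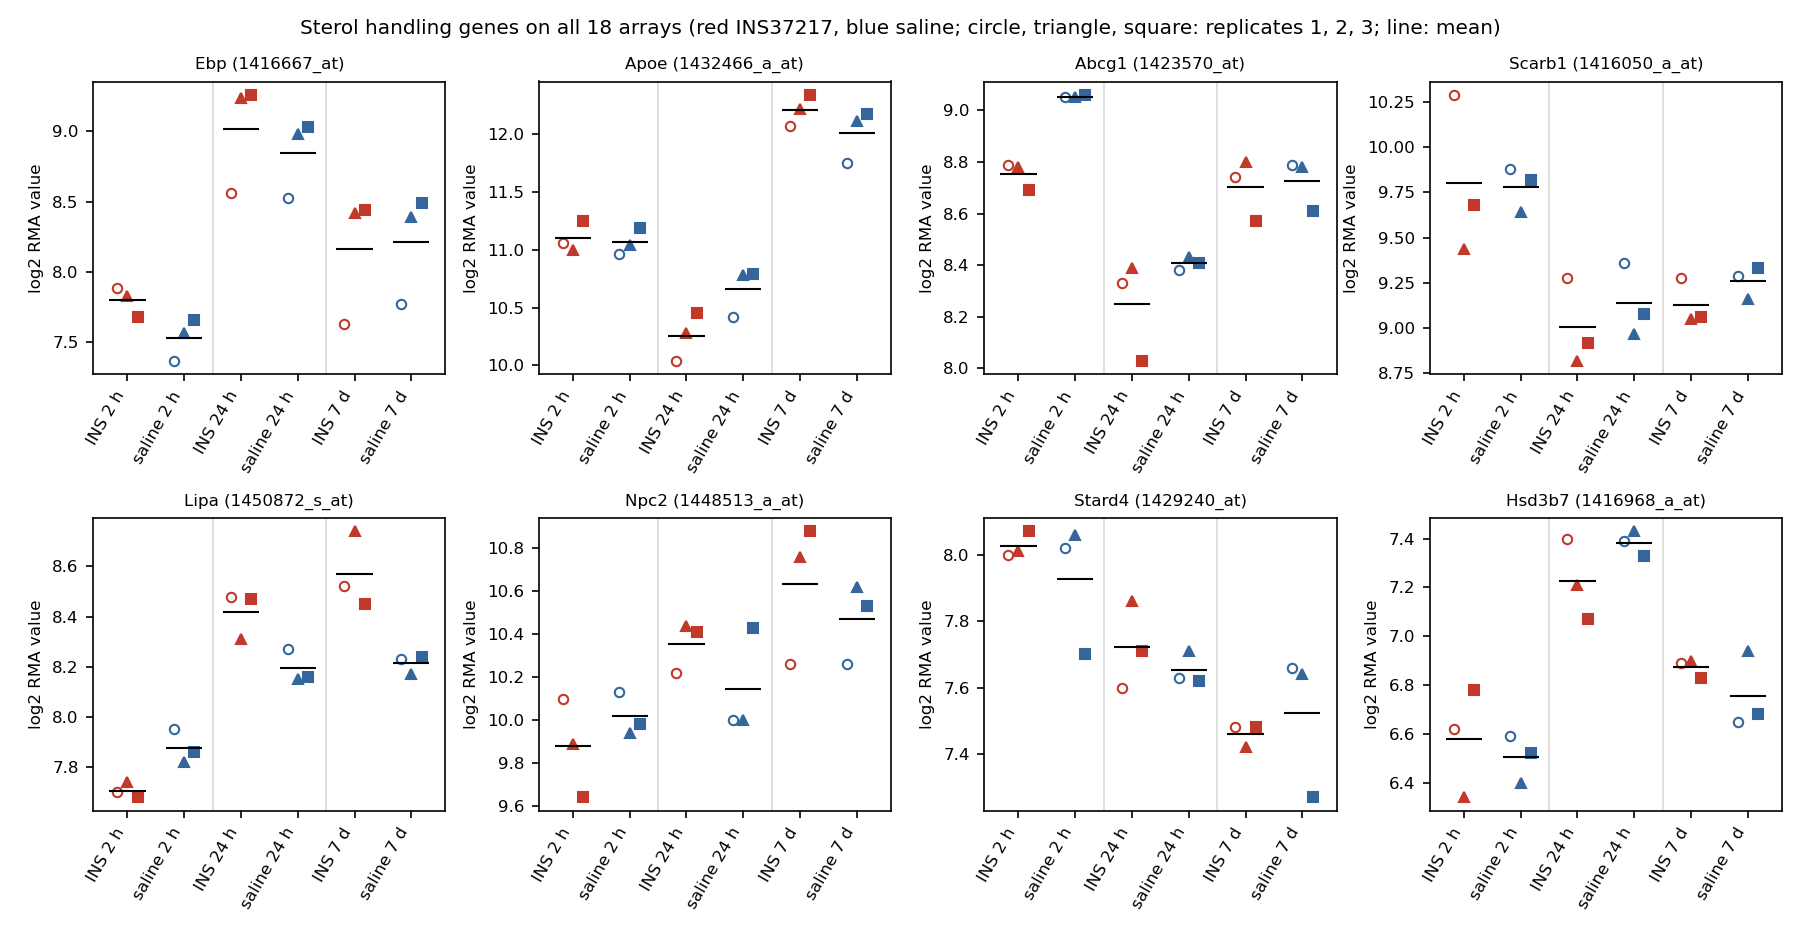
Log2 RMA value on all 18 arrays for 8 genes of sterol handling, with INS37217 left of saline at each time, symbols for the replicate number and a line for the group mean. Ebp and Hsd3b7 lie highest at 24 h, Apoe dips at 24 h and lies highest at 7 d, Lipa lies lowest at 2 h, and Scarb1 and Stard4 lie highest at 2 h.

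Markers of other cell types moved over the same interval. The mean log2 level of 12 microglia and macrophage markers (all 12 measured) ranged from 7.59 to 8.03 on the INS37217 arrays at 7 d, against 5.98 to 6.19 at 2 h. On saline arrays it ranged from 7.17 to 7.49 at 7 d, against 6.01 to 6.17 at 2 h, and 12 markers passed as higher on INS37217 and 9 on saline arrays. The 8 pigment epithelium markers averaged 8.88 at 7 d against 7.97 at 2 h on INS37217 arrays, and 8.96 against 8.18 on saline arrays. Rod markers (8 of 10 measured) averaged 11.66 at 7 d against 12.21 at 2 h on INS37217 arrays, and 11.75 against 12.14 on saline arrays. Only Prph2 of these passed without the block, as lower in both treatments (2 markers with the block on INS37217 and 3 on saline arrays). The list's median change was -0.255 on INS37217 arrays, with 1 of 8 above 0, and -0.105 on saline arrays, with 2 of 8 above 0. The 6 fibroblast markers averaged 7.48 at 7 d against 5.84 at 2 h on INS37217 arrays (5 passed as higher) and 6.41 against 6.12 on saline arrays (0 passed, 2 with the block). Mueller glia markers averaged 9.82 at 7 d against 9.50 at 2 h on INS37217 arrays and 9.88 against 9.49 on saline arrays. The rod list mean lay between 11.46 and 12.28 on all 18 arrays. For beta-actin the 3′ signal less the 5′ signal, a sign of RNA integrity or of the labelling, ranged from 0.46 to 0.70 at 7 d against 0.70 to 0.78 at 2 h on INS37217 arrays, and from 0.60 to 0.70 against 0.93 to 1.10 on saline arrays. That of Gapdh averaged -0.27 at 7 d against -0.16 at 2 h on INS37217 arrays, and -0.25 against -0.01 on saline arrays. The part of these shifts in the changes of Abca1, Apoe, Lipa and the synthesis genes was not tested.

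Ch25h, cholesterol 25-hydroxylase, was the only member that passed between INS37217 and saline, and it did so at 2 h. Its 1 probe set read 7.55, 7.78 and 7.65 with INS37217 at 2 h, against 6.91, 6.93 and 6.99 with saline. At 24 h it read 6.74, 7.05 and 6.59 with INS37217, against 6.45, 6.48 and 6.30 with saline. At 7 d it read 6.64, 6.45 and 6.30 with INS37217, against 6.26, 6.15 and 5.96 with saline. At each time every INS37217 array lay above every saline array. At 2 h Ch25h was 0.72 higher with INS37217 (SE 0.13, adjusted p = 0.040, 0.00057 with the block), 1.64-fold, with a 95% interval of 0.44 to 0.99 before adjustment. The call without the block was lost on leaving out any 1 of the 6 arrays (changes of 0.66 to 0.77, adjusted p 0.079 to 0.20) and when those 6 arrays were fitted alone (adjusted p = 0.27). The differences of 0.38 at 24 h and 0.34 at 7 d did not pass (adjusted p = 0.95 and 1, and 0.13 and 0.31 with the block), nor did the change of the drug difference with time, which was -0.33 at 24 h minus 2 h and -0.38 at 7 d minus 2 h.

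Ch25h also fell with time. On INS37217 arrays it fell by 0.87 at 24 h against 2 h (SE 0.13, adjusted p = 0.00042) and by 1.20 at 7 d against 2 h (adjusted p = 2.2e-05), 2.29-fold, calls that held whichever array was left out. On saline arrays it fell by 0.53 at 24 h against 2 h (adjusted p = 0.018), a call lost without saline 2 h replicate 2 or 3 or saline 24 h replicate 3 (adjusted p 0.059 to 0.092). Its change on saline arrays at 7 d against 2 h was -0.82 (adjusted p = 0.0011), whichever array was left out. From high to low its groups ran INS37217 2 h (7.66 ± 0.12), saline 2 h (6.94 ± 0.04), INS37217 24 h (6.79 ± 0.23), INS37217 7 d (6.46 ± 0.17), saline 24 h (6.41 ± 0.10) and saline 7 d (6.12 ± 0.15). Saline 2 h and INS37217 24 h, and INS37217 7 d and saline 24 h, differed by less than the larger of their SDs.

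Other readouts of the same 2 h arrays were set beside the Ch25h difference. The mean of 6 interferon-induced genes (of 8 listed) was 5.84 with INS37217 and 6.09 with saline at 2 h, and at 24 h it was 8.62 with INS37217 and 7.56 with saline. Ch25h was thus highest at 2 h and the mean of this list at 24 h, though 1 of the 6 genes lay lower at 24 h than at 2 h on saline arrays. Between INS37217 and saline at 2 h none of the 6 passed without the block, and Ifit1 was lower with it. A link between Ch25h and interferon signals was not tested. The mean of the neutrophil markers (all 7 measured) ranged from 5.89 to 6.10 with INS37217 and from 5.75 to 6.14 with saline at 2 h. All 7 were higher with INS37217, with a median difference of 0.08, and none passed. Microglia and macrophage markers averaged 6.07 with INS37217 and 6.06 with saline at 2 h, and none of the 12 passed with or without the block. Pigment epithelium markers averaged 7.97 with INS37217 and 8.18 with saline, and 2 of 8 passed as lower, Pmel and Tyrp1 (3 with the block, which added Dct). The list was split, with 5 of 8 markers higher with INS37217 and a median difference of 0.20. The same beta-actin measure ranged from 0.70 to 0.78 with INS37217 and from 0.93 to 1.10 with saline at 2 h, and its part in the Ch25h difference was not tested. The genes most like Ch25h by the same rule were Cd14 (r = 0.947), Gbp2b, Oaf, Rrad and Tgif1 (r = 0.935). Cd14, the lipopolysaccharide co-receptor, averaged 7.80 with INS37217 and 7.42 with saline at 2 h, and 6.60 with INS37217 and 6.25 with saline at 7 d. Gbp2b, an interferon-inducible GTPase outside the interferon list above, averaged 8.10 with INS37217 and 7.53 with saline at 2 h. At 24 h it averaged 7.56 with INS37217 and 6.92 with saline. Both genes were picked for their likeness to Ch25h.

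The oxysterol list had 6 of 7 genes measured, Ch25h among them, and none of the other 5 passed between INS37217 and saline at 2 h. Hsd3b7, which acts on oxysterols on the way to bile acids, rose at 24 h against 2 h by 0.65 on INS37217 arrays (adjusted p = 0.0036) and by 0.88 on saline arrays (adjusted p = 0.00029). Cyp27a1, the mitochondrial sterol 27-hydroxylase, fell by 0.70 on INS37217 arrays (adjusted p = 0.0032), and its fall of 0.47 on saline arrays (adjusted p = 0.039) was lost on leaving out any of 5 of the 6 saline arrays. Over all 6 pathway lists Ch25h was the only gene that passed at 2 h between INS37217 and saline, without or with the block (0.121% and 1.07% of all genes passed).

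For the drug, 1 of 18 member probe sets passed at 2 h (Ch25h), against 0.128% of all probe sets (1.76% with the block, where the count was again 1). None passed at 24 h (background 0.119%, and 0.888% with the block) or at 7 d (0.150%, and 0.641% with the block), and at each time 1 member, Ch25h, had an unadjusted limma p under 0.05. With the block 3 had at 2 h (Ch25h, Hmgcs1 1433446_at at 0.37 and Cyp51 1450646_at at 0.29), 1 at 24 h (Ch25h) and 3 at 7 d (Ch25h, Idi1 1451122_at at -0.24 and Fdft1 1438322_x_at at -0.38), and of these only Ch25h at 2 h passed after adjustment. The median difference over the 14 synthesis probe sets was 0.11 at 2 h, 0.10 at 24 h and -0.12 at 7 d. For Hmgcs1 1433443_a_at the 95% interval of the difference was -0.33 to 0.30 at 2 h and -0.48 to 0.14 at 7 d, for Sqle -0.13 to 0.32 and -0.33 to 0.12, and for Cyp51 1450646_at -0.60 to 1.19 and -1.09 to 0.70. With the block these intervals were -0.28 to 0.25 and -0.43 to 0.09 for Hmgcs1 1433443_a_at, -0.10 to 0.29 and -0.30 to 0.09 for Sqle, and 0.01 to 0.57 and -0.47 to 0.09 for Cyp51 1450646_at, none of them adjusted. For Abca1 1421840_at the difference was -0.15 at 2 h, 0.12 at 24 h and 0.17 at 7 d, with intervals that included 0 without and with the block.

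**Figure D5:**
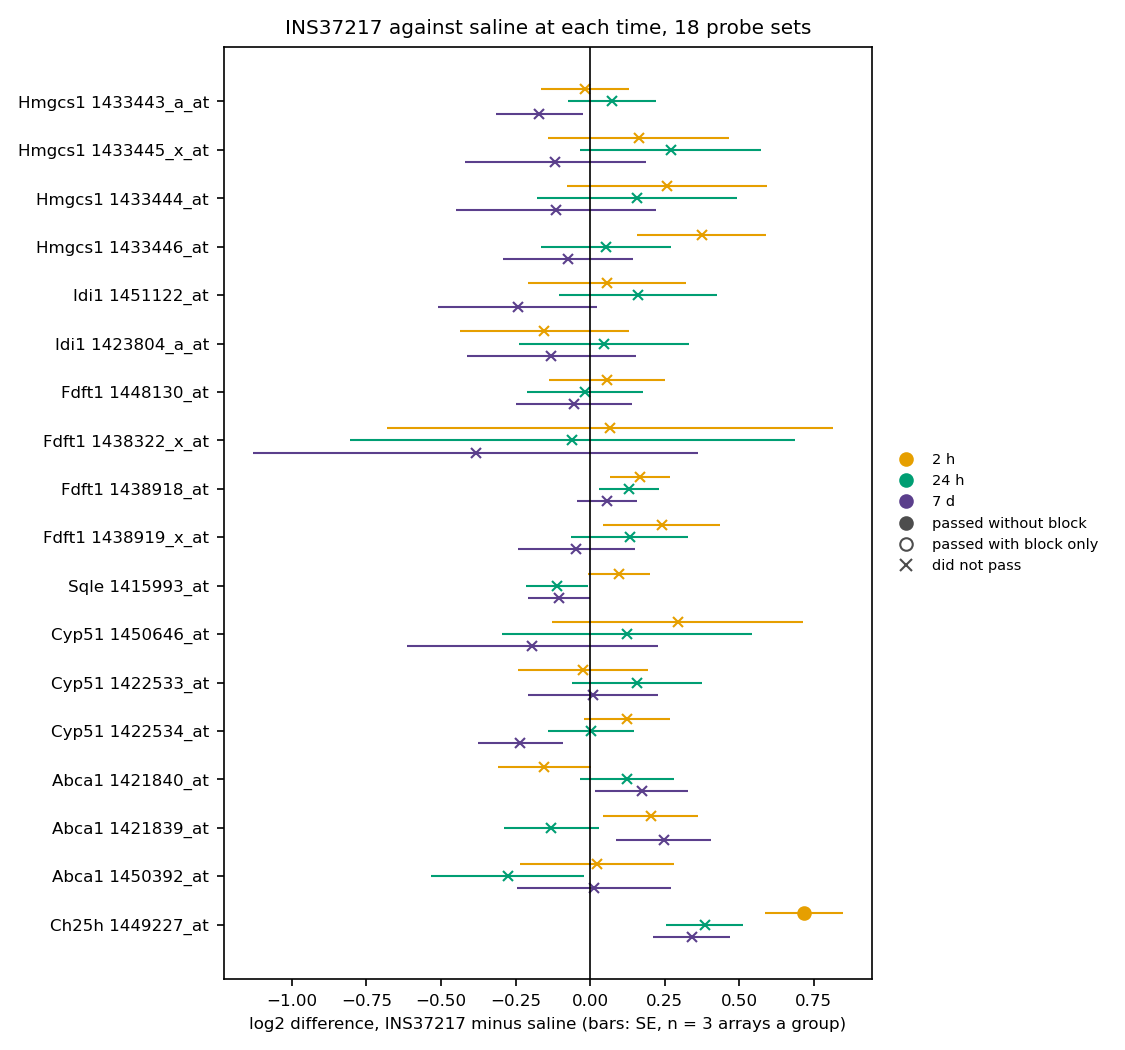
Difference in log2 RMA value, INS37217 minus saline, at 2 h, 24 h and 7 d for the 18 member probe sets, with bars for the SE (n = 3 arrays a group). The filled circle is the only member that passed, Ch25h at 2 h at 0.72; its 24 h and 7 d points also lie right of 0, while points of the other genes lie on both sides.

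The change of the drug difference with time was tested directly, and no member passed. At 24 h minus 2 h 0.0575% of all probe sets passed (1.07% with the block), at 7 d minus 24 h 0.0398% (0.274%), and at 7 d minus 2 h 0.0884% (0.835%). Without the block no member had an unadjusted limma p under 0.05, and with it 3, 2 and 5 had, with lowest adjusted p of 0.54, 0.58 and 0.24. The larger count of synthesis genes that passed on INS37217 arrays at 7 d is therefore not shown to differ from that on saline arrays.

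The steps to and from 24 h added few calls without the block. At 24 h against 2 h 1 of 18 member probe sets passed on INS37217 arrays (Ch25h, background 6.52%) and 2 on saline arrays (Abca1 and Ch25h, background 7.58%). With the block 3 passed on INS37217 arrays (background 22.1%) and 7 on saline arrays (29.0%). For the step from 24 h to 7 d, 2 passed on INS37217 arrays, both of Abca1 (background 2.21%), of which 1421839_at was lost without INS37217 7 d replicate 2 or 3 (adjusted p = 0.052 and 0.053), and 1 on saline arrays, also of Abca1 (1.31%). With the block 10 passed on INS37217 arrays, 3 higher and 7 lower (background 7.66%), and 3 on saline arrays, 2 higher and 1 lower (7.37%).

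Fatty acid synthesis, which shares its SREBP regulators with cholesterol synthesis, is listed for comparison with all 8 genes measured. Fads2, a fatty acid desaturase, rose at 7 d against 2 h by 0.69 on INS37217 arrays (adjusted p = 0.0099) and by 0.87 on saline arrays (adjusted p = 0.0019). The call on INS37217 arrays was lost without INS37217 2 h replicate 2 or 3 (adjusted p = 0.052 each). Scd1, the stearoyl-CoA desaturase, fell by 0.53 on INS37217 arrays (adjusted p = 0.016), a call lost without INS37217 2 h replicate 1 or 7 d replicate 2 (adjusted p = 0.083 and 0.092), and stood at -0.26 on saline arrays (0.30, and 0.061 with the block).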

How the data were processed

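Retinal RNA was measured on 18 Affymetrix arrays, 3 per treatment and time. The authors deposited log2 values made by RMA (background correction, quantile normalization and probe-set summary), per the submitters' processing notes; its version is not stated in what was used here. Probe-level intensities were not used here. Quantile normalization forces array distributions to be alike, so differences are relative within an array, and array number limits precision. Groups came from sample titles. After 64 control probe sets were left out, 22626 were fitted over all 6 groups with limma 3.58.1 (R 4.3.3, lmFit and eBayes, Benjamini-Hochberg adjustment). Of these, 20380 have 1 gene by the platform annotation, 691 several and 1555 none. List genes were read from the probe set of highest mean. Same-numbered arrays deviated together from their group means in all 45 pairs (r 0.43 to 0.92). Arrays of unlike number were not compared. Positive values would also arise if only replicate 1 stood apart, so a pairing of replicates 2 and 3 is not shown. The block was chosen from the values, and what a number stands for is not given in the labels. Alternatives were the replicate block, quantile normalization again, only probe sets above the median level, only the arrays compared, the mean over a gene's probe sets, each array left out and, added after seeing the data, only replicates 2 and 3. Text names all members, the 5 genes most like each pattern, and list genes that passed; list genes named because a small count of them is given (such as Msmo1, Mvd, Lss, Sc5d, Dhcr7, Ggps1, Hsd17b7 and Stard4) were chosen after their values were seen. The members and lists were chosen with earlier results of these data known. The fit was tested on simulated data.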

Additional observations from a re-analysis of the deposited data

How the results depend on the processing

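With the replicate block, the member probe sets that passed numbered 3 at 24 h against 2 h, 10 at 7 d against 24 h and 16 at 7 d against 2 h on INS37217 arrays, and 7, 3 and 11 on saline arrays; the block changed no count between INS37217 and saline. With only replicates 2 and 3, chosen after seeing the data, the counts were 7, 8 and 17 on INS37217 arrays and 8, 2 and 11 on saline arrays. With only the arrays compared, they were 0 at 7 d against 24 h in both treatments, 2 at 7 d against 2 h on saline arrays and 0 between INS37217 and saline at 2 h. Quantile normalization again gave 10 at 7 d against 2 h on INS37217 arrays, where a filter to probe sets brighter than the median one left 3, and 3 at 7 d against 24 h on INS37217 arrays. The same level filter gave 3 at 7 d against 2 h on saline arrays, 1 at 24 h against 2 h on saline and 0 on INS37217 arrays, and 0 between INS37217 and saline at 2 h, because Ch25h was removed by it. Quantile normalization again gave 3 at 24 h against 2 h on saline arrays.

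Leaving out 1 array gave 0 to 2 at 24 h against 2 h, 0 to 2 at 7 d against 24 h and 3 to 5 at 7 d against 2 h on saline arrays. It gave 1, 1 to 2 and 5 to 8 on INS37217 arrays, and 0 between INS37217 and saline at 2 h, for each of the 6 arrays. The saline count at 24 h against 2 h was 0 without saline 2 h replicate 2 or 24 h replicate 3, and 1 without 2 h replicate 3 or 24 h replicate 2. At 7 d against 24 h it was 0 without saline 24 h replicate 1 or 7 d replicate 2 or 3, and 2 without 7 d replicate 1. At 7 d against 2 h it was 3 without saline 7 d replicate 3, and at 7 d against 24 h on INS37217 arrays 1 without 7 d replicate 3. Fdft1 1438322_x_at ranged from -1.15 to 0.18 at 7 d against 24 h and from -1.12 to 0.11 at 7 d against 2 h on INS37217 arrays, above 0 without INS37217 7 d replicate 1. Apart from these 2, no member or list value tried changed sign on leaving out an array. The cause of the other shifts was not tested. The number of arrays, 3 pools a group, limits the precision of every value.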
